A study of Rattus norvegicus with 150 samples.

Results

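In rat calf muscle, 522 of the 32545 genes counted were close to silent beside a tantalum implant and clearly expressed beside a cobalt implant at 3 months. They were chosen by their own counts. Counts were scaled by the total of their library to counts per 1000000 counts (CPM). A gene was a member if its mean was under 1 CPM over the 31 tantalum libraries and at least 5 CPM over the 8 cobalt libraries at 3 months. The low values beside tantalum and the high values beside cobalt at 3 months are therefore a description and were not tested. All other groups, including cobalt at 1, 6 and 12 months, played no part in the choice.

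Cobalt is a trace metal that cells need as part of vitamin B12. In excess, cobalt ions inhibit the oxygen-sensing hydroxylases and so stabilise hypoxia-inducible factors, and wear debris from cobalt alloy implants is known to draw inflammatory cells into the surrounding tissue. Bulk muscle RNA comes mostly from muscle fibres, with smaller amounts from vessels, nerves, connective tissue and any cells that have entered. A gene that goes from silent to expressed in such tissue may be switched on in resident cells or brought in by arriving cells, and bulk RNA cannot tell these apart.

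All animals were male Sprague-Dawley rats, bought at an age of about 30 days and kept for at least 2 weeks before surgery. Cylinders of a metal, 1 mm across and 2 mm long, were placed in the gastrocnemius, 2 per limb and 4 per rat. The metals were tantalum (Ta, the sham), cobalt (Co), depleted uranium (DU) and a metal labelled P, each at 1, 3, 6 and 12 months after surgery. Nickel (Ni) was sampled at 1, 3 and 6 months. P is left as the labels spell it. The only sequenced metal of the design text that begins with that letter is lead, Pb. Of the 19 groups, 17 had 8 libraries, and Ta at 1 month and Co at 6 months had 7. Every group carried foreign metal and had been operated on, Ta included. Because the labels do not say which rat gave which library, the p-values below reflect only how far libraries of a group spread.

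Library totals ran from 12674115 to 21921859 counts. The genes are known here only by Ensembl identifier, and no name could be matched to any of them. Markers of muscle, of inflammatory cells or of any other cell type could therefore not be checked, and no process is assigned to the members. Only a few identifiers are given, and the rest of the members are described by their counts and levels.

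Beside Ta the members were nearly absent. Their mean over the 31 Ta libraries had a median of 0.305 CPM, and 149 members were under 0.1 CPM. For 37 members, not 1 count was found in any Ta library. The highest Ta library stayed under 1 CPM for 230 members and reached 5 CPM or more for 18.

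In Co at 3 months, the members spanned a wide range of levels, with few abundant genes. The median of their means was 10.8 CPM, with quartiles of 7.02 and 21.1 CPM. Only 7 members averaged 100 CPM or more, and 2 averaged 1000 CPM or more. The most abundant member alone held 26.5% of the summed level and the 10 most abundant held 45.4%, so a sum over the members mostly follows a few of them. The rule's edge cut through a continuum. The lowest members averaged 5.01, 5.05 and 5.06 CPM in Co at 3 months, and the nearest genes left out averaged 4.96, 4.95 and 4.94 CPM. On the tantalum side, the nearest members averaged 1.00, 0.997 and 0.994 CPM, and the nearest genes left out 1.00, 1.00 and 1.01 CPM.

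The members were not raised evenly across the cobalt libraries at 3 months. A library is said to carry a member where that member is at 1 CPM or more. Replicates 1 to 8 of Co at 3 months carried 185, 522, 519, 221, 68, 514, 241 and 519 of the 522 members. Replicates 2, 3, 6 and 8 thus carried nearly the whole set, and replicates 1, 4, 5 and 7 carried less than a majority. At 5 CPM or more the gap widened, to 515, 444, 488 and 514 members in replicates 2, 3, 6 and 8 and to 7, 12, 1 and 9 in replicates 1, 4, 5 and 7. For 512 members, every one of replicates 2, 3, 6 and 8 lay above every one of replicates 1, 4, 5 and 7.

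Counted by member, 402 were at 5 CPM or more in exactly 4 of the 8 libraries, 89 in 3 and 1 in all 8. At 1 CPM or more, 185 members were carried by exactly 4 libraries, and for 182 of these the 4 were replicates 2, 3, 6 and 8. Another 34 members were carried by all 8 libraries. These 34 were seldom silent beside Ta, with a median Ta mean of 0.81 CPM against 0.0996 CPM for the members carried by 4 libraries. The mean of a member at 3 months therefore describes no typical cobalt library. The highest library held a median of 35.8% of a member's summed level, and it held over 80% for 5 members.

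**Figure D1:**
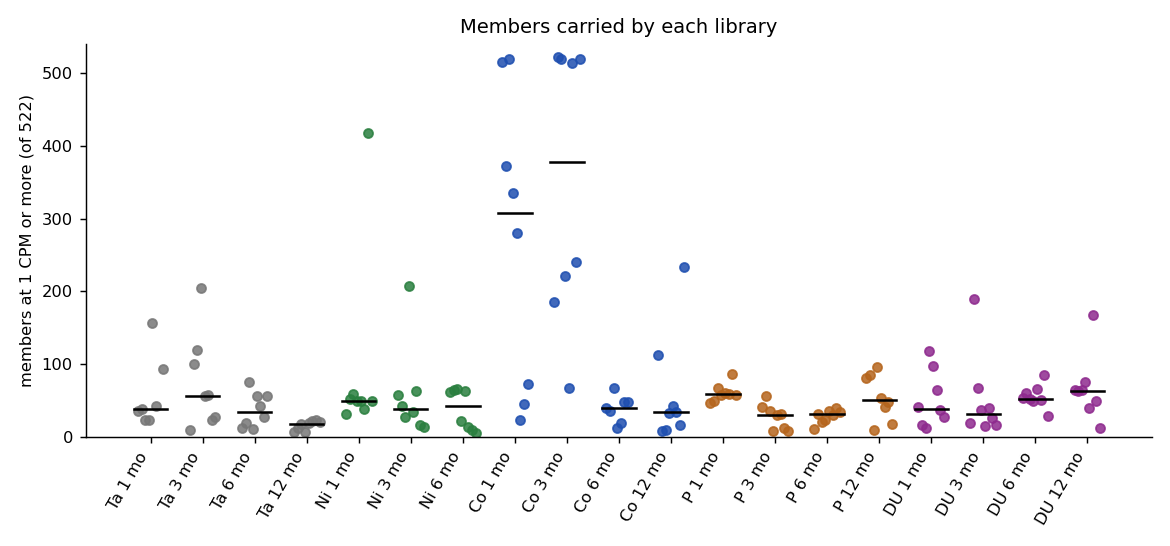
Number of the 522 members at 1 CPM or more (vertical axis) in each of the 150 libraries, by metal and months after surgery (horizontal axis); points are libraries and bars are group medians. Co at 1 and 3 months spread from 23 to 522 members, and outside Co only replicate 7 of Ni at 1 month, with 418, lies above 208.

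The 4 libraries that carried the set resembled each other in which members were high. Spearman's rho across the 522 members between pairs of replicates 2, 3, 6 and 8 lay between 0.63 and 0.79, a description over genes that share libraries and were chosen on them. Replicates 4 and 7, which carried the set weakly, still ranked the members in a related order, with median rho values of 0.56 and 0.47 with those 4. In replicates 1 and 5 the medians were 0.34 and 0.10.

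Other features of the libraries moved with the members. In replicates 2, 3, 6 and 8, the 10 most abundant genes took 15.5% to 22.5% of all counts, and in replicates 1, 4, 5 and 7 they took 25.8% to 31.2%. Between 12950 and 13814 genes reached 1 CPM in the first 4 libraries and between 11720 and 12094 in the others. The members summed to 3.67%, 1.56%, 2.05% and 4.62% of the counts in replicates 2, 3, 6 and 8. The part of this wider shift in the members' levels was not tested. With CPM computed on TMM-scaled library sizes, which correct for such shifts, the same rule found 348 genes, of which 347 were members.

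At 1 month, in libraries the rule did not use, cobalt again split its replicates. Replicates 1 to 8 of Co at 1 month carried 515, 373, 519, 335, 280, 23, 45 and 73 members. Replicates 1 and 3 carried almost the whole set and replicates 2, 4 and 5 an intermediate number. Replicates 6, 7 and 8 fell within the range of the Ta libraries, 7 to 205. The median member was at 11.8 and 22.2 CPM in replicates 1 and 3, between 1.06 and 1.71 CPM in replicates 2, 4 and 5, and between 0.16 and 0.25 CPM in the last 3. Replicates 1 and 3 were the highest pair of the 8 for 515 members.

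Cobalt at 1 and at 3 months shared members. Applying the rule to Co at 1 month in place of 3 months gave 274 genes, and 261 of them, 95.3%, were members, which is 50% of the members. The shared Ta threshold fixes part of that overlap. A member's mean at 1 month was a median of 46.8% of its mean at 3 months, and 8 members were higher at 1 month. Across members, replicates 1 and 3 at 1 month had rho values of 0.51 to 0.83 with replicates 2, 3, 6 and 8 at 3 months. Replicates 2, 4 and 5 had 0.31 to 0.70, and replicates 6, 7 and 8 had -0.16 to 0.18.

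**Figure D2:**
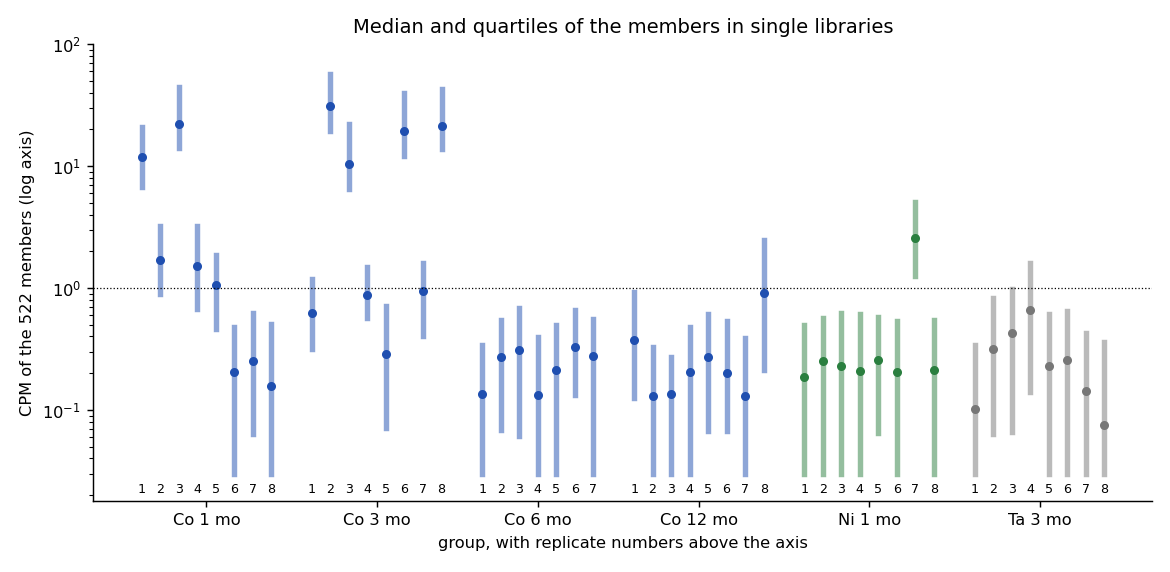
Level of the members (vertical log axis, CPM) in each library of the 4 Co groups, Ni at 1 month and Ta at 3 months; points are medians over the 522 members, bars run between quartiles, values under 0.03 CPM are drawn at 0.03, and the dotted line is 1 CPM. Within Co at 1 and 3 months the medians run from 0.16 to 31.1 CPM, and the median of Ni at 1 month, replicate 7, is 2.55 CPM.

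ENSRNOG00000048402 was the most abundant member. In Co at 3 months its replicates 1 to 8 held 1600, 5515, 3577, 159, 20.6, 2320, 41.9 and 19437 CPM, so every library lay above the highest of Ta, 1.53 CPM. Unlike most members, it was also high in replicate 1, which carried few of the others. In Co at 1 month it was at 1476, 200, 5869, 225 and 9.65 CPM in replicates 1 to 5 and at 2.45, 0.51 and 1.08 CPM in replicates 6 to 8. By 6 months its highest Co library was at 15.7 CPM and the median at 0.89 CPM, and by 12 months the highest was at 2.60 CPM. The cobalt levels at 12 months overlapped those of Ta, P and DU.

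Nickel was the other metal in which ENSRNOG00000048402 was repeatedly found. In Ni at 3 months its lowest, median and highest libraries were at 0, 4.27 and 699 CPM, and the 3 highest were replicate 4 at 699 CPM, replicate 7 at 41.3 CPM and replicate 5 at 31.8 CPM. In Ni at 1 month it was at 56.6 CPM in replicate 7 and at most 1.42 CPM in the other replicates. It reached 36.5 CPM in 1 DU library at 6 months, replicate 8. In every P group its highest library stayed at or under 4.42 CPM.

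ENSRNOG00000034190, the second most abundant member, followed a similar course. Replicates 1 to 8 of Co at 3 months held 54.5, 3489, 1078, 164, 3.14, 758, 24.5 and 4235 CPM. At 1 month, replicates 1 to 5 held 1138, 54.1, 1772, 50.6 and 17.5 CPM, and replicates 6 to 8 held 0.27, 1.14 and 0.95 CPM. Its highest Ta library was at 1.78 CPM, so the high cobalt libraries stood clear of Ta and the low ones at 1 month did not. At 6 months the highest Co library, replicate 2, was at 10.8 CPM, the same library that was highest for ENSRNOG00000048402. Outside cobalt it was highest in Ni at 1 month, replicate 7, at 126 CPM, and in Ni at 3 months, replicate 4, at 26.4 CPM.

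**Figure D3:**
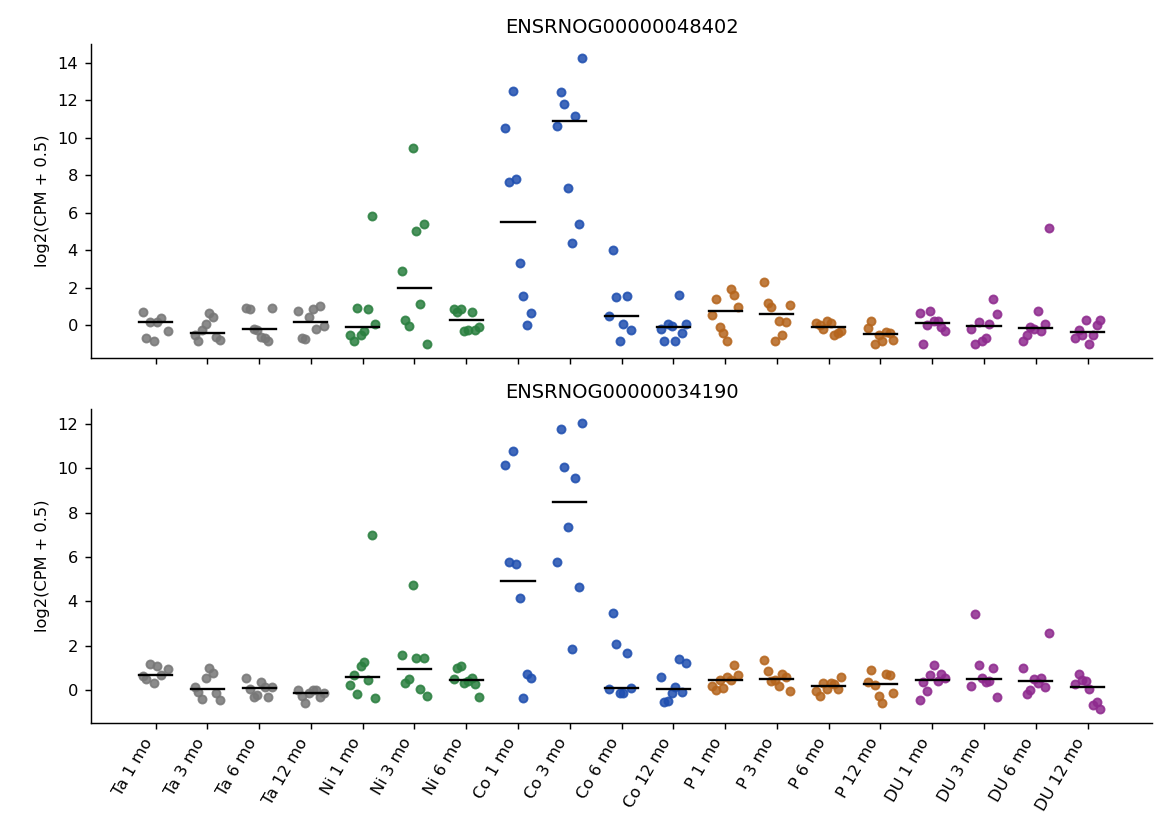
Level of the 2 most abundant members as log2(CPM + 0.5) (vertical axis) in each library by metal and months after surgery (horizontal axis); points are libraries and bars are group medians. Both are high in most Co libraries at 1 and 3 months, and single libraries of Ni at 1 month and of DU at 6 months lie above the rest of their groups. In Ni at 3 months a single library does so for ENSRNOG00000034190, and several are raised for ENSRNOG00000048402.

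The level at 1 month was tested against the other metals at that time, a comparison in which no library had chosen the members. Co was compared with the mean of Ni, P and DU in edgeR's quasi-likelihood test with Benjamini-Hochberg adjustment, fitted to all genes, and a gene was called at an adjusted p under 0.05. Only 254 members passed the usual filter on low counts, which favours members that are high in a group, so the members are counted in the fit without that filter. There, all 522 members were tested and 498 were higher in Co, against 16.6% of all 23409 genes tested. None was lower, 0 of 522, against 4.82% of all genes. At an unadjusted p under 0.05, 1 member and 9.66% of all genes were lower. The median log2 fold change of the 522 members was 3.49, and that of all genes was 0.08. In 320 members the call came with a rise of over 8-fold. No matching count over 8-fold was made for all genes. Just above that level, the single bin from 3 to 3.5 log2 units held 12.1% of the members and 1.10% of all genes, called or not. These 2 shares leave out the higher bins, so 1.10% is not the share of all genes over 8-fold. The 24 members not called had a median of 7.24 CPM in Co at 3 months, against 11.3 CPM for those called.

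At 1 month ENSRNOG00000048402 was 8.46 ± 0.97 log2 units higher in Co (± SE, edgeR adjusted p = 6.26e-07), and ENSRNOG00000034190 by 6.80 ± 0.89 (edgeR adjusted p = 2.63e-06). With limma voom the values were 4.66 and 2.96 log2 units (adjusted p = 0.0261 and 0.0386). Over their alternatives the adjusted p ranged from 2.07e-15 to 0.110 and from 5.84e-27 to 0.143. For both genes, 7 of 8 Co libraries lay above the median of the 24 others, and 4 and 2 of them lay above all 24. An exact two-sided permutation test of the mean log2(CPM + 0.5), 8 Co libraries against 24, gave differences of 5.04 and 3.97 with p = 0.000273 and 0.000947, or 0.00109 and 0.00126 adjusted over 4 such tests.

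The calls depended on which libraries shared the fit. The fits of 2 groups kept the low-count filter, which favours members high in a group, so their member counts are given as a description. Co at 1 month against DU alone called 110 of 178 members tested as higher, where 5.27% of all genes were, and against P alone 107 of 194, where 5.30% of all genes were. Against Ni alone edgeR called 0 genes of any kind. At an unadjusted p under 0.05, 151 of 194 members and 15.0% of all genes were higher. Leaving out replicate 7 of Ni, the Ni library that carried the set, still gave 0 calls. There, 170 of 195 members and 15.6% of all genes were higher at an unadjusted p under 0.05, and both leading members had an adjusted p of 0.0731. Without TMM factors the median over all genes moved to 0.23 and higher genes made up 88.5% of calls in place of 67.9%, while 248 of the 254 filtered members were called higher and 0 lower, against 30.0% and 3.91% of all genes. With TMM factors those numbers were 236 and 0, against 17.7% and 8.38% of all genes.

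**Figure D4:**
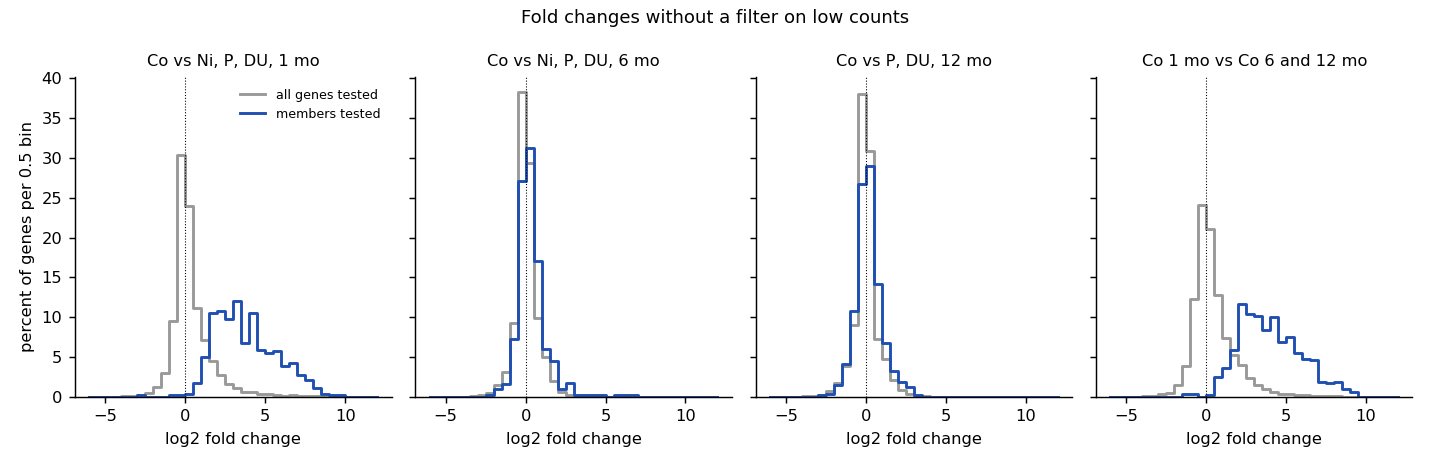
Percent of genes (vertical axis) per bin of log2 fold change (horizontal axis) in 4 comparisons without a filter on low counts, for the members and for all genes tested. The members' median is 3.49 for Co against Ni, P and DU at 1 month and 3.75 for Co at 1 month against Co at 6 and 12 months, and 0.16 and 0.08 for Co against the other metals at 6 and 12 months.

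The members were low in the cobalt libraries at 6 and 12 months. The 7 libraries of Co at 6 months carried 13 to 67 members. Those of Co at 12 months carried 8 to 113, apart from replicate 8 with 233. Means at 6 and 12 months were a median of 1.80% and 2.37% of the means at 3 months. Because Co at 3 months chose the members, its own fall was not tested. Co at 1 month was tested against Co at 6 and 12 months instead, and without the low-count filter 488 of the 522 members were higher at 1 month, against 16.2% of all genes. None was lower, 0 of 522, against 5.93% of all genes. At an unadjusted p under 0.05, 2 members and 10.8% of all genes were lower. The median log2 fold change of the members was 3.75, and that of all genes was 0.15. Without TMM factors, in the filtered fit, the median over all genes was 0.25 and higher genes made up 84.3% of calls in place of 62.9%.

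Set against its later libraries, Co at 1 month was 8.76 ± 1.26 log2 units higher in ENSRNOG00000048402 (± SE, edgeR adjusted p = 0.000109) and 7.34 ± 1.08 higher in ENSRNOG00000034190 (edgeR adjusted p = 0.000129). In 32 alternatives the adjusted p ranged from 2.00e-13 to 0.0529 for the first and from 2.19e-12 to 0.0467 for the second. Exact two-sided permutation over the 8 and 15 libraries gave p = 0.000865 and 0.00181 (0.00126 and 0.00181 adjusted over the 4 tests). For each gene, 7 of the 8 libraries at 1 month exceeded the median of the later ones. Time since surgery, the age of the rats and any batch of a time cannot be told apart here.

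At 6 months few members distinguished cobalt from the other metals. Without the filter, 8 of 512 members tested were higher in Co than in Ni, P and DU, or 1.56%, against 1.59% of all genes. With the filter, 182 members were tested and 3 were higher, against 5.92% of all genes, and 0 lower, against 1.52%. At an unadjusted p under 0.05, 5 members and 8.79% of all genes were lower. ENSRNOG00000002217 rose by 1.59 ± 0.47 (edgeR adjusted p = 0.0379) and ENSRNOG00000034190 by 1.53 ± 0.46 (edgeR adjusted p = 0.0415). The first had a median of 0.75 CPM in Co and of 0.22 to 0.47 CPM in the other metals, with overlapping ranges. The second had a median of 0.55 CPM in Co, below the medians of 0.87, 0.64 and 0.84 CPM in Ni, P and DU, and its mean in Co was raised by replicates 2, 3 and 6 at 10.8, 3.70 and 2.71 CPM. Without Co replicate 1, whose 10 most abundant genes took 47.7% of its counts, edgeR called 9 genes and 0 members. Without TMM factors it called 120 genes, of which 44.2% were higher in place of 79.6%, the median over all genes moved to -0.13 and 0 members were called.

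At 12 months no member passed the threshold against P and DU. edgeR called 0 genes of either direction among all genes, against 919 at an unadjusted p under 0.05. Of these, in the filtered fit, 11 were members that were higher and 2 members that were lower, where 3.16% of all genes were higher and 4.10% lower. Without the filter, 50 of the 522 members were higher and 9 lower at that unadjusted p, against 5.38% and 3.25% of all genes. Without replicate 8 of Co the balance in the filtered fit turned, to 1 member higher and 18 lower, against 3.54% and 6.62% of all genes. The median log2 fold change of the filtered members moved from 0.03 to -0.34, while that of all genes was -0.05. DESeq2 called 34 genes with 1 member, lower in Co, where 0.158% of all genes were lower. With limma voom 234 genes were called with 2 members, also lower, where 0.956% of all genes were. Replicate 8 of Co at 12 months carried 233 members, but in another order. Its rho across members was -0.07 to 0.23 with replicates 2, 3, 6 and 8 of Co at 3 months, and 0.52 to 0.76 with the Ta libraries at 3 months other than replicate 4. In that library the most abundant member, ENSRNOG00000048402, was at 0.56 CPM.

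Over all 31 Co libraries, a member was carried by a median of 10, with quartiles of 8 and 13 and a range of 2 to 25. In the 119 libraries of the other metals and Ta, the median was 4 libraries, with quartiles of 1 and 16.8, and 59 members were carried by none of them. Cobalt at 3 months had the highest group mean for 499 members by the way they were chosen. With Co at 3 months set aside, the highest group was Co at 1 month for 496 members and DU at 3 months for 19. Among all groups, the mean was highest in DU at 3 months for 14 members, in Co at 1 month for 8 and in DU at 12 months for 1.

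Nickel, P and DU left most members near their Ta level. Their 88 libraries carried 5 to 418 members, with a median of 47.5. Group medians ran from 30.5 for P at 3 months to 63.5 for DU at 12 months, a range that overlapped the Ta medians of 18.5 to 57. None of the P libraries carried more than 96. Levels of 5 CPM were reached in none of the 88 libraries by 313 members.

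One nickel library was the exception. Replicate 7 of Ni at 1 month carried 418 members, 134 of them at 5 CPM or more, while the other 7 replicates carried 32 to 59. It was the highest of the 88 libraries for 304 members. Its members stood in the order seen in cobalt, with rho values of 0.53 to 0.66 against replicates 2, 3, 6 and 8 of Co at 3 months, where the other Ni replicates at 1 month had -0.12 to 0.23. Of the 373 members carried by Co at 1 month, replicate 2, the nickel library carried 329. That was 88.2% of the cobalt library's members, where the nickel library carried 80.1% of all members. It was 78.7% of the nickel library's own, where the cobalt library carried 71.5% of all members. The overlap was thus only somewhat above these base shares, and the excess was not tested.

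At 5 CPM, the genes that were low in Ta and high in that nickel library were mostly members, but at 1 CPM other genes were raised in number too. Of all genes under 1 CPM in Ta, 142 were at 5 CPM or more in it, and 134 of those were members. At 1 CPM or more it carried 723 of the 13519 other genes that were under 1 CPM in Ta, where the remaining Ni replicates carried 238 to 377. Its median member, at 2.55 CPM, lay between the intermediate and the high Co libraries of that time. The labels place this library in the nickel group and it is counted there. Without it, in the filtered fit at 1 month, edgeR called 250 of 260 members and 17.8% of all genes higher in Co, in place of 236 of 254 members and 17.7%. Whether the sample itself or its handling sets it apart was not tested.

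Depleted uranium at 3 months held a different exception. Replicate 2 carried 189 members, with 53 at 5 CPM or more and 85 with no count, while the other replicates carried 15 to 67. A few members dominated it, and the 3 largest made up 76.8% of the members' sum. The order of its members was little related to cobalt, with rho of 0.06 to 0.28. It held 630 genes that were under 1 CPM in Ta and at 5 CPM or more, of which 53 were members. For scale, members were 522 of the 14041 genes under 1 CPM in Ta with a count in any library. For 21 members it was the highest of all 150 libraries.

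**Figure D5:**
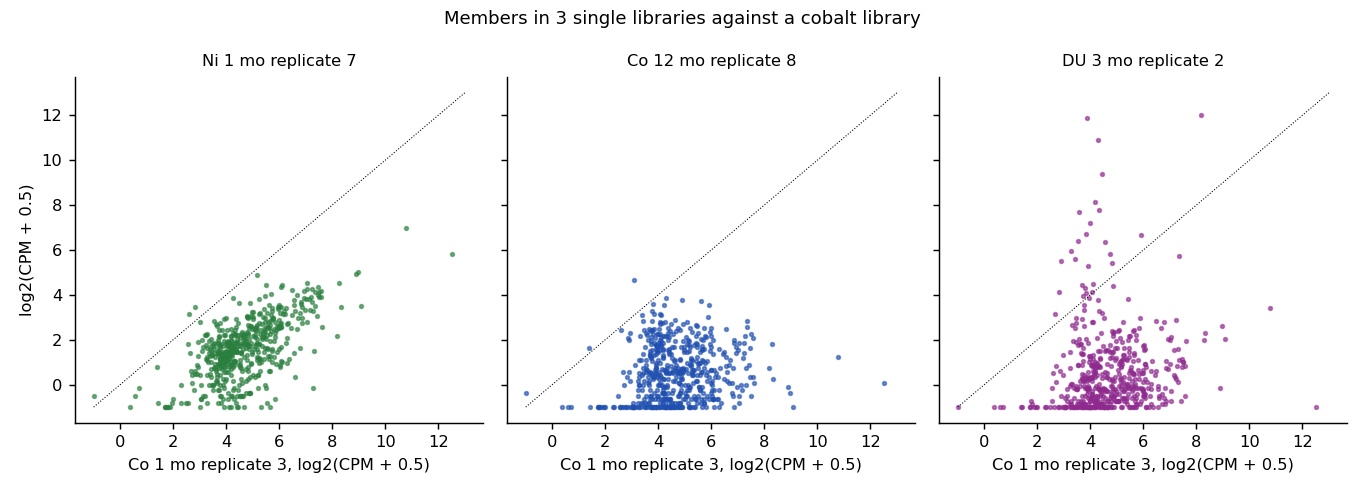
Each point is a member, placed by log2(CPM + 0.5) in Co at 1 month, replicate 3 (horizontal axis) and in 1 other library (vertical axis); the dotted line marks equal levels. Members that are high in the Co library tend to be high in Ni at 1 month, replicate 7, but not in Co at 12 months, replicate 8. The highest member in DU at 3 months, replicate 2, is at 4195 CPM.

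DU at 3 months was tested against Ni and P. Without the filter, 48 of 512 members were higher, or 9.38%, against 5% of all genes, and 0 were lower, against 0.124%. At an unadjusted p under 0.05, 12 members and 4.71% of all genes were lower. In the filtered fit, ENSRNOG00000046834 rose by 11.28 ± 1.36 (edgeR adjusted p = 5.67e-05), with a lowest, median and highest DU library of 0.48, 25.6 and 4195 CPM against at most 4.30 CPM in Ni and P. ENSRNOG00000008837 rose by 9.86 ± 1.29 (edgeR adjusted p = 0.000100), with a median of 7.17 and a highest value of 1938 CPM in DU. ENSRNOG00000017429 fell by 0.86 ± 0.24 log2 units (edgeR adjusted p = 0.0398), with a mean of 0.47 CPM in DU and of 1.02 CPM in Ni and 0.78 CPM in P. It was the only member called lower, against 0.216% of all genes. All 19 members called higher in the filtered fit, where 4.43% of all genes were, had their highest value in replicate 2, and without it 2 members were called. With DU and one other metal in the fit, edgeR called 0 genes, against 3005 (Ni) and 846 (P) at an unadjusted p under 0.05.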

How the data were processed

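RNA from gastrocnemius was sequenced as stranded total RNA, in read pairs, per the labels' protocols. The authors deposited 1 table of whole-number counts per gene, not normalized. Per the submitters' processing notes, the aligner was HISAT2 2.0.5, the build Rnor_6.0 and the counter featureCounts 1.5.0-p3. Annotation release and strand setting: not given in the sources used here. Reads of near-identical, antisense or overlapping genes may thus be shared. Columns were matched to libraries and groups by the labels. No library pair within a group agreed within sampling noise.

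The members and the lists were chosen with earlier results of these data known. Because no identifier matched a name in the reference table (RefSeq, GRCr8), the 21 gene lists were not tested, no sequence is shown, and at most 2 rises and 2 falls per comparison were taken from the rule for named genes (the largest changes past the threshold and the highest means in Co at 3 months).

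Each of 5 comparisons used its own groups in edgeR 4.0.16 (limma 3.58.1, R 4.3.3) with filterByExpr, TMM factors, glmQLFit (robust) and glmQLFTest, adjusted p under 0.05 over all genes tested. The script was tested on simulated data. Log2(CPM + 0.5) values were compared by exact permutation (Python 3.11.15, numpy 2.4.6). Alternatives were RLE factors, no filter, DESeq2 1.42.0, limma voom with quality weights, a replicate block and leaving out libraries. Those added after seeing the data were legacy=FALSE, no TMM factors, fits of 2 groups, and leaving out replicate 7 of Ni at 1 month or replicate 6 of DU at 12 months. Also added were leaving out each Co library at 6 and 12 months in the comparison over time, and other settings for counting the members that Ni replicate 7 carried.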

Additional observations from a re-analysis of the deposited data

Results flagged for a closer look

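In 12 of the 57 groups of values examined, 1 library lay further from its nearest neighbour than Dixon's 95% criterion allows, where chance gives about 1 in 20. The groups were the 19 combinations of metal and time, each for the number of members carried and for the 2 most abundant members on the log2(CPM + 0.5) scale. For the number carried, the library at the high end was replicate 7 of Ni at 1 month with 418, replicate 4 of Ni at 3 months with 208, replicate 8 of Co at 12 months with 233, replicate 2 of DU at 3 months with 189 and replicate 6 of DU at 12 months with 167. For ENSRNOG00000048402 it was replicate 7 of Ni at 1 month with 56.6 CPM, replicate 6 of Co at 12 months with 2.60 CPM and replicate 8 of DU at 6 months with 36.5 CPM. For ENSRNOG00000034190 it was replicate 7 of Ni at 1 month with 126 CPM, replicate 4 of Ni at 3 months with 26.4 CPM, replicate 2 of DU at 3 months with 10.3 CPM and replicate 8 of DU at 6 months with 5.52 CPM. Ni at 1 month, replicate 7, stood out on all 3 measures.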

How the results depend on the processing

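The number of members was 522, and 284 by the median over Co at 3 months, 230 with every Ta library under 1 CPM, 278 at a threshold of 10 CPM, 1007 at 2 CPM and 409 to 573 without each Co library in turn. The counts below are from the filtered fits, as genes called with members called in brackets. At 1 month the count was 3426 (236), and 1398 (94) with voom, 981 (110) against DU alone, 954 (107) against P alone and 0 (0) against Ni alone with or without Ni replicate 7. Without the filter 498 members were called. Without each Co library or Ni replicate 7 in turn, the count was 2062 to 3972 (186 to 279). It was lowest without Co replicate 3 (2062) and replicate 1 (2207). The leading members' log2 fold changes in those fits were 6.83 to 9.53 and 5.86 to 8.03. With voom these were 4.66 and 2.96. Against Ni alone these were 6.59 and 4.17 (adjusted p = 0.110 and 0.143), and 9.84 and 7.89 without Ni replicate 7. At 6 months the count was 951 (3), and 1298 (7) with DESeq2, 207 with voom, 120 (0) without TMM, 420 (8) without the filter, 1 (0), 0 (0) and 0 (0) against DU, Ni and P alone, and 9 to 1506 (0 to 5) without each Co library. It was 9 (0) without replicate 1 and 1506 (5) without replicate 3. Members numbered 5 without replicate 5 and 1 without replicate 6. In those 2 fits 5.26% and 4.83% of all genes were called higher, and 0.93% and 1.06% lower. At 12 months it was 0 (0), and 34 (1) with DESeq2, 234 (2) with voom, 3 without TMM and 7 against P alone. Without single Co libraries or DU replicate 6 it was 0 to 9 (0 to 0), namely 1 without Co replicate 1 and 9 without DU replicate 6. For Co over time it was 3790 (239), and 2273 (105) against 12 months alone and 1386 (122) against 6 months alone. With voom 159 members were called, where 14.9% of all 12824 genes tested were called higher and 13.5% lower. There, ENSRNOG00000048402 had a log2 fold change of 4.68 (limma voom adjusted p = 0.0529). Without the filter 488 members were called, where 16.2% of all genes were higher. Leaving out single libraries gave 2574 to 4514 (161 to 289) and log2 fold changes of 7.20 to 9.45 and 6.45 to 7.78. For DU at 3 months it was 582 (20), and 87 (3) with DESeq2, 0 (0) with voom and against Ni or P alone, and 1117 (48) without the filter. Without single DU libraries it was 29 to 893 (2 to 23), namely 29 (2) without replicate 2 and 893 without replicate 7. The causes of these changes were not tested.

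Whether replicate numbers pair libraries was not settled, since weak correlations cannot exclude a pairing. Same-numbered libraries correlated over 0.1 in 11 of 48 pairs at 1 month, 22 of 45 at 6 months and 7 of 24 at 12 months. Over time it was 10 of 22 pairs, and 9 of 24 for DU. At 6 months the median correlation was 0.096 for the same number and -0.009 for other numbers. With the replicate block the counts were 2547 (188) at 1 month, 529 (0) at 6 months, 0 (0) at 12 months, 2835 (185) over time and 8 (1) for DU. RLE factors and legacy=FALSE changed no count of genes or members by over 1.5 times. Ni at 1 month, replicate 7, carried 402 members on TMM-scaled CPM and 315 at 2 CPM in place of 1. At 2 CPM, Co at 12 months, replicate 8, fell from 233 to 153 and DU at 3 months, replicate 2, from 189 to 115. Members near 1 CPM rest on 12.7 to 21.9 counts in a library, so whether a library carries them is imprecise.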

Other observations

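Libraries that carried many members outside cobalt at 1 and 3 months differed in which members were high. Replicate 6 of DU at 12 months carried 167 members, 35 of them at 5 CPM or more, and its order across members had rho of -0.10 to 0.22 with replicates 2, 3, 6 and 8 of Co at 3 months and 0.56 to 0.68 with the Ta libraries at 3 months other than replicate 4. Replicate 4 of Ta at 3 months carried 205 and had rho of -0.03 to 0.30 with the same Co libraries. Replicate 4 of Ni at 3 months carried 208, with rho of 0.10 to 0.37. These are descriptions over 522 members that share libraries, and no test was made. One member had its highest value of all 150 libraries in P, in replicate 5 at 3 months.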
